A study of Homo sapiens with 2 samples.

Results

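The mitotic cells of an RWPE-ERG-mAKT library and of an RWPE1 library are described here. A cell was a barcode with more than 2500 detected genes and less than 7.5% of its unique molecular identifiers (UMIs, which count single RNA molecules) in mitochondrially encoded genes. A cell was called mitotic when at least 1 UMI was found for 6 or more of 8 genes, AURKA, PLK1, CDC20, CCNB1, UBE2C, CENPE, KIF14 and KIF20A. By this rule 4081 of 14140 RWPE-ERG-mAKT cells and 3573 of 9967 RWPE1 cells were mitotic, 7654 of 24107 cells in all, from 29859 barcodes. They were compared within each library with the low cells, which had at most 2 of the 8 genes: 5104 RWPE-ERG-mAKT cells and 3174 RWPE1 cells. The members were chosen by the detection of these 8 genes, and the levels of the 8 in these cells describe the choice and are not a finding.

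RWPE1 is an immortalized line of normal human prostate epithelium grown in serum-free keratinocyte medium. RWPE-ERG-mAKT is RWPE1 transduced with retroviruses for ERG, an ETS transcription factor placed under the HNRNPA2B1 promoter, and for a myristoylated and thus membrane-bound AKT1 (mAKT), and kept under hygromycin and puromycin. The RWPE1 library is labelled as a vector-only control, the empty vector named in the methods being pBABE-puro, while the paper's text calls these cells parental. Each condition was 1 library of 3′ single-cell RNA, with 10000 cells loaded, so no difference between the libraries has a replicate check and no test was made.

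Cells that enter mitosis switch on a late program of genes whose promoters are bound by the MuvB complex with B-MYB and FOXM1. Cyclin B with CDK1 drives entry, Polo and Aurora kinases build the spindle, the checkpoint holds the cell until each chromosome is attached, and the anaphase-promoting complex then destroys cyclin B and securin so that the chromosomes part and the cell divides. In growing epithelial lines these transcripts build up in G2 and fall soon after division, so a class cut from them holds G2 cells as well as cells in mitosis proper.

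Promoter sequences were read for the genes that carried this pattern, because the late program is known for a DNA element called CHR and for CCAAT boxes. Promoters came from the RefSeq promoter table (GRCh38.p14), which gives 250 bases before to 50 bases after each start. Genes with more than 1 entry there, or with an incomplete window, were left out. Among 140 genes that were over 2-fold higher in mitotic than in low cells of both libraries, 92 had such a single entry. CHR (TTTGAA or TTCGAA, on either strand) was found in 69 of these 92 promoters (75%). It was found in 533 of 4681 promoters of genes counted in both libraries (11.4%) and in 17.2% of all 22114 promoters kept. CCAAT (either strand) was found in 71 of the 92 (77.2%), against 38.8% of the counted genes and 36.2% of all promoters. Both words were present in 57 of the 92 (62.0%), against 5.43% of the counted genes and 6.91% of all promoters, and 45 of the 92 held more than 1 CCAAT, a share of 48.9% against 14.5% of the counted genes and 11.4% of all promoters. Without the 8 genes of the rule the share with CHR was 76.7% (66 of 86). Of the 39 genes on a list for S phase, 25 had a single promoter entry and 2 of these held CHR (8%). Of the 8 genes of the rule, AURKA and UBE2C were not among the promoters kept. PLK1, CDC20 and KIF14 held CHR, and PLK1, CDC20, CCNB1, KIF14 and KIF20A held CCAAT. A match is a word in the window and does not show that a factor bound there.

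The following stretches lie before the RefSeq start and outside all GENCODE exons, and show how the words are arranged in genes that were high in mitotic cells, with the MCM6 gene, which was low in them, for contrast. They are written 5′ to 3′ on the strand of the gene, CHR and CCAAT words are in capitals, and positions count back from -1, the base before the start. The activator of the anaphase-promoting complex CDC20 (chr1:43358871-43358954, plus strand, -110 to -27) has in this stretch CHR at -65 between CCAAT at -100 and -55, and the proliferation antigen MKI67 (chr10:128126424-128126533, minus strand) has CHR at -47 and -29 with CCAAT at -98 and -24.
CDC20: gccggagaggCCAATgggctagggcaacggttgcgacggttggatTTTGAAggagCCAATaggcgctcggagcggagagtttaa
MKI67: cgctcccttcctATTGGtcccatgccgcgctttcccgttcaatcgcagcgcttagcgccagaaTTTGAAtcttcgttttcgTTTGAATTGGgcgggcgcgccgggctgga
The topoisomerase TOP2A (chr17:40417953-40418096, minus strand, -200 to -57), the spindle pole gene ASPM (chr1:197146695-197146809, minus strand, -140 to -26), the centromere chaperone HJURP (chr2:233854567-233854710, minus strand, -175 to -32) and the centrosome kinase NEK2 (chr1:211675631-211675731, minus strand, -110 to -10) follow. NEK2 shows CCAAT without CHR.
TOP2A: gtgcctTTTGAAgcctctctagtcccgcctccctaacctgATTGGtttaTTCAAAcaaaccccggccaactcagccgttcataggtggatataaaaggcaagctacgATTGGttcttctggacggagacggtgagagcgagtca
ASPM: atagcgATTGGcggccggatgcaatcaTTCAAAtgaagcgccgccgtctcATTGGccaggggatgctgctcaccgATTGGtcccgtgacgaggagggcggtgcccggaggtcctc
HJURP: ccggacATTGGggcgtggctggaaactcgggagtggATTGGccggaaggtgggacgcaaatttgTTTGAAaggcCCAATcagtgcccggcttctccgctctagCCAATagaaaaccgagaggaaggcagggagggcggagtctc
NEK2: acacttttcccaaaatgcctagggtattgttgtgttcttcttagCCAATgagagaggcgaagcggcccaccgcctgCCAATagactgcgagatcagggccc
The licensing helicase gene MCM6 (chr2:135876444-135876553, minus strand) has CCAAT at -100 and -58 and no CHR in the stretch shown, and its single CHR word lies at -246.
MCM6: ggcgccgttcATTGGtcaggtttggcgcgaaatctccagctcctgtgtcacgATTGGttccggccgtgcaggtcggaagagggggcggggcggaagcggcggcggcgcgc

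Mitotic cells were deep cells. The median was 18434 UMIs in mitotic and 10762 in low cells of RWPE-ERG-mAKT, and 22046 in mitotic and 14099 in low cells of RWPE1, and the mean was 1.63 times higher in mitotic than in low cells of either library. The rule needs UMIs of 6 genes, so it takes deep cells more readily, and more RNA per cell, a doublet and deeper capture of a cell cannot be told apart here. Median mitochondrial shares were 2.79% in mitotic and 2.69% in low cells of RWPE-ERG-mAKT, and 5.23% in mitotic and 5.65% in low cells of RWPE1. Since each member had more than 2500 genes, all lie above the upper limit of 2500 genes per cell stated in the study's methods. The libraries shared 55 barcodes, of which 12 were RWPE-ERG-mAKT and 23 were RWPE1 mitotic cells, and 1 RWPE1 member carried genes of a brain-type cell.

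The share of mitotic cells was 28.9% (95% exact binomial interval 28.1 to 29.6) in RWPE-ERG-mAKT and 35.8% (34.9 to 36.8) in RWPE1, intervals that cover counting error only. At equal depth the gap was smaller. With each cell thinned to 10000 UMIs and shallower cells left out (3744 RWPE-ERG-mAKT and 579 RWPE1 cells), the shares were 24.2% (23.4 to 25.01) and 24.8% (23.9 to 25.7), so that the intervals overlapped. At 5000 UMIs they were 11.1% (10.6 to 11.6) in RWPE-ERG-mAKT and 12.9% (12.2 to 13.6) in RWPE1. The intervals of the libraries thus overlapped at 10000 UMIs and not at full depth or at 5000, and the 10000 setting left out more of the RWPE-ERG-mAKT cells. They describe these cells of 1 library each and not the conditions.

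Cells were found at each number of rule genes from 0 to 8, so the class is cut from a range. The numbers of cells had a peak at 2 genes (2318 RWPE-ERG-mAKT and 1449 RWPE1 cells) and were higher again at 8 than at 6. Cells with exactly 5 of the 8 genes, just outside the rule, numbered 1234 in RWPE-ERG-mAKT and 904 in RWPE1, and those with exactly 6, just inside it, 1174 and 878. All 8 genes were found in 1617 RWPE-ERG-mAKT cells (11.4%) and 1782 RWPE1 cells (17.9%), the most frequent number in RWPE1. The cells with all 8 had a median of 20588 UMIs in RWPE-ERG-mAKT and 23865.5 in RWPE1, so the libraries are not compared at equal depth here. PLK1 was at 63.0 CPM (UMIs of the gene per 1000000 UMIs summed over the cells) in RWPE-ERG-mAKT cells with 6 genes and at 28.6 CPM in those with 5, and at 29.7 CPM and 15.6 CPM in the RWPE1 cells with 6 and with 5. PLK1 is itself among the 8 genes counted, so its rise with their number describes the rule. Between 3 and 5 genes lay 4955 RWPE-ERG-mAKT and 3220 RWPE1 cells, which entered neither side of the comparison.

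**Figure D1:**
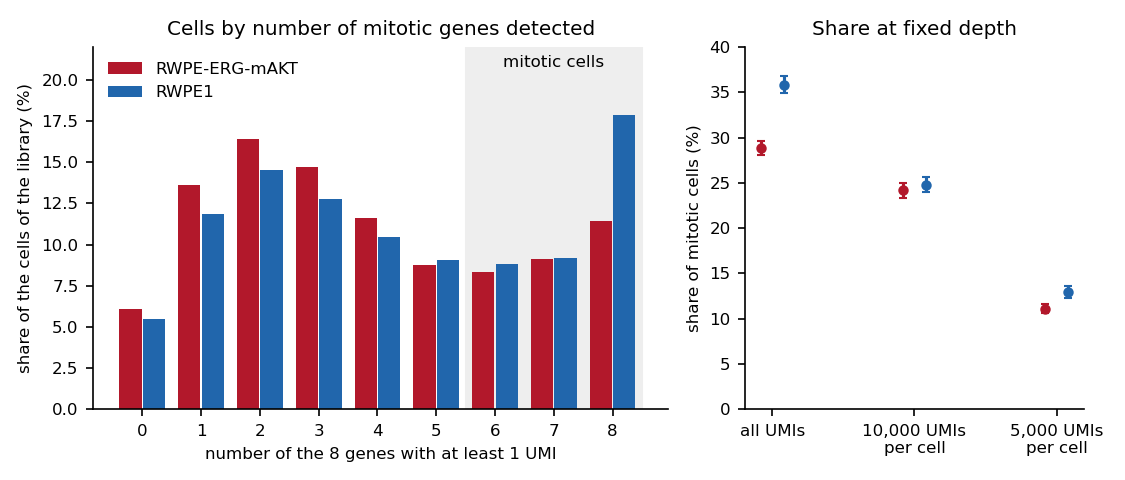
Left, share of the cells of each library (%) by the number of the 8 genes with at least 1 UMI, with the mitotic cells shaded. Right, share of mitotic cells (%) with all UMIs and with each cell thinned to 10000 or 5000 UMIs, points with 95% exact binomial intervals. The libraries stand apart with all UMIs (28.9% and 35.8%), overlap at 10000 UMIs (24.2% and 24.8%) and stand apart at 5000 UMIs (11.1% and 12.9%).

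The 8 genes of the rule differed in how steeply they marked the cells, which describes the choice of cells and is not a finding. PLK1 (Polo-like kinase; GRCh38 chr16:23677656-23690367) had 131 CPM in mitotic and 2.68 CPM in low cells of RWPE-ERG-mAKT, and 108 CPM in mitotic and 1.72 CPM in low cells of RWPE1. KIF20A (chr5:138178719-138187715), a kinesin of the dividing midzone, had 68.3 CPM in mitotic and 1.72 CPM in low cells of RWPE-ERG-mAKT, and 92.95 CPM in mitotic and 1.72 CPM in low cells of RWPE1. CDC20 (chr1:43358955-43363203) separated them least, with 275 CPM in mitotic and 41.4 CPM in low cells of RWPE-ERG-mAKT, and 237 CPM in mitotic and 56.9 CPM in low cells of RWPE1. In low cells, which the rule keeps poor in all 8 genes, CDC20 was thus the highest of these 3.

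AURKA (Aurora A kinase; chr20:56369389-56392337) had 331 CPM in mitotic and 15.9 CPM in low cells of RWPE-ERG-mAKT, and 291 CPM in mitotic and 14.5 CPM in low cells of RWPE1. The most abundant of the 8 was UBE2C, the ubiquitin-conjugating enzyme of the anaphase-promoting complex (chr20:45812576-45816957), at 698 CPM in RWPE-ERG-mAKT and 587 CPM in RWPE1 mitotic cells, followed by CCNB1, cyclin B1 (chr5:69167010-69178245), at 633 CPM and 508 CPM. CENPE, a kinesin of the kinetochore (chr4:103105806-103198409), was at 184 CPM in RWPE-ERG-mAKT and 135 CPM in RWPE1 mitotic cells. KIF14, a kinesin of cytokinesis (chr1:200551497-200620734), was the one rule gene that differed over 2-fold between the libraries, with 96.6 CPM in RWPE-ERG-mAKT and 229 CPM in RWPE1 mitotic cells (log2 ratio -1.25, 95% interval -1.28 to -1.21). It was found in 78.5% of mitotic and 4.51% of low cells of RWPE-ERG-mAKT, and in 92.8% of mitotic and 7.09% of low cells of RWPE1. With KIF14 taken out of the rule and 5 of the other 7 genes required, an alternative added after the data were seen, the shares were 34.5% in RWPE-ERG-mAKT and 39.4% in RWPE1.

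Genes that took no part in the rule marked the same cells, and since the class was cut on genes of the same cells their differences are given as a description. A gene was counted when the mean of its levels in mitotic and low cells was at least 10 CPM, and called when its ratio passed 2-fold. In RWPE-ERG-mAKT 150 of 8597 counted genes were higher in mitotic cells (1.74%) and 30 were lower (0.349%). In RWPE1 171 of 9064 were higher (1.89%) and 47 were lower (0.519%). Of 8123 genes counted in both libraries, 140 were higher in both, which is 96.6% of the RWPE-ERG-mAKT and 86.4% of the RWPE1 genes called there, 8 were lower in both and 0 were called in opposite directions. The counts of higher genes and these shares include the 8 genes of the rule, whose calls follow from the choice of cells. Without them 132 genes were higher in both. The median log2 ratio over all counted genes was -0.03 in RWPE-ERG-mAKT and -0.01 in RWPE1.

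**Figure D2:**
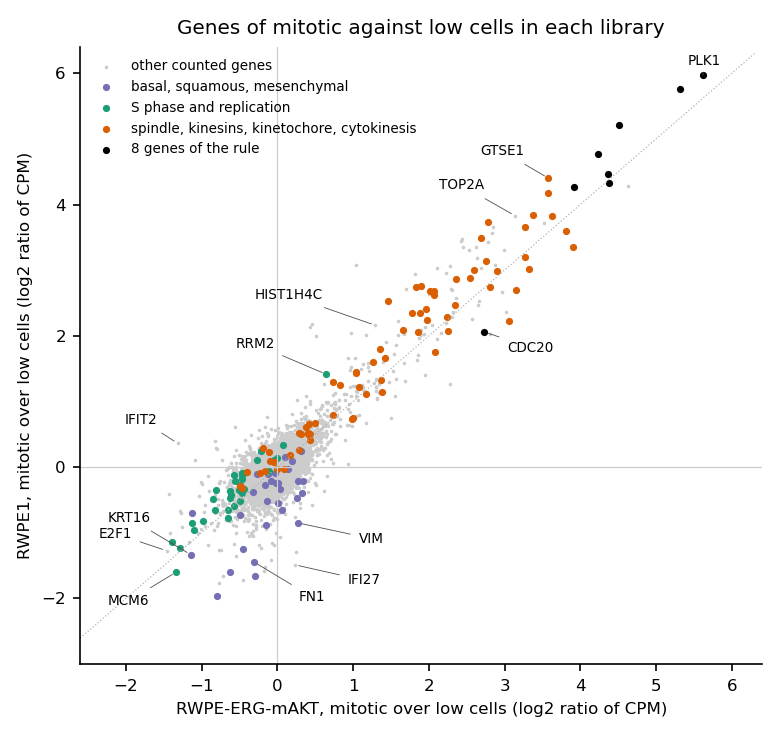
Each point is a gene counted in both libraries, with the log2 ratio of its level (CPM) in mitotic over low cells of RWPE-ERG-mAKT on the horizontal axis and of RWPE1 on the vertical axis, colours marking gene groups and the dotted line equal ratios. PLK1 lies at 5.62 and 5.97, MCM6 at -1.34 and -1.601, and VIM at 0.27 and -0.85.

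The 56 genes with at least 50 CPM that were called higher in both libraries were ranked by the smaller of their ratios in the libraries. By this ranking the steepest beside the rule genes were FAM83D, HMMR, DLGAP5, CENPF, CENPA, KIF2C, TOP2A, ARL6IP1 and KPNA2. FAM83D, a spindle protein, had 127 CPM in mitotic and 9.07 CPM in low cells of RWPE-ERG-mAKT, and 124 CPM in mitotic and 10.2 CPM in low cells of RWPE1. CENPF, a kinetochore protein that builds up in G2, had 788 CPM in mitotic and 79.0 CPM in low cells of RWPE-ERG-mAKT, and 568 CPM in mitotic and 70.0 CPM in low cells of RWPE1. TOP2A, which untangles sister chromatids, had 483 CPM in mitotic and 54.9 CPM in low cells of RWPE-ERG-mAKT, and 563 CPM in mitotic and 39.6 CPM in low cells of RWPE1. In both libraries these genes were thus roughly an order of magnitude above the low cells.

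ARL6IP1, a membrane protein of the endoplasmic reticulum, had 443 CPM in mitotic and 59.5 CPM in low cells of RWPE-ERG-mAKT, and 228 CPM in mitotic and 28.7 CPM in low cells of RWPE1. KPNA2, a nuclear import receptor, had 281 CPM in mitotic and 38.2 CPM in low cells of RWPE-ERG-mAKT, and 273 CPM in mitotic and 32.3 CPM in low cells of RWPE1. TOP2A was found in 88.6% of RWPE-ERG-mAKT mitotic cells and 33.4% of low cells thinned to 10000 UMIs, and in 91.7% of RWPE1 mitotic cells and 28.3% of low cells, so the difference is also one of how many cells held the transcript at one depth. The thinned cells were 3667 mitotic and 2908 low cells of RWPE-ERG-mAKT and 3488 mitotic and 2808 low cells of RWPE1. Without thinning the TOP2A shares were 92.8% of mitotic and 38.1% of low cells in RWPE-ERG-mAKT, and 96.0% of mitotic and 36.5% of low cells in RWPE1.

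Among the kinases and cyclins of mitotic entry, 11 of 16 counted genes were over 2-fold higher in mitotic cells of either library (against 1.74% of all counted genes in RWPE-ERG-mAKT and 1.89% in RWPE1, which hold for the groups that follow too), with median log2 ratios of 1.88 in RWPE-ERG-mAKT and 1.66 in RWPE1. CDK1, the kinase that cyclin B activates, had 313 CPM in mitotic and 64.2 CPM in low cells of RWPE-ERG-mAKT, and 220 CPM in mitotic and 26.3 CPM in low cells of RWPE1. CCNB2, cyclin B2, had a log2 ratio of 2.80 in RWPE-ERG-mAKT and 2.03 in RWPE1. The phosphatase CDC25C, which activates CDK1, had log2 ratios of 2.78 in RWPE-ERG-mAKT and 3.43 in RWPE1, while its inhibitor kinase WEE1 had 0.55 and 0.73 and was called in neither library. All 4 members of the chromosomal passenger complex, AURKB, BIRC5, CDCA8 and INCENP, were called in both libraries, with median ratios of 2.58 in RWPE-ERG-mAKT and 3.25 in RWPE1.

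The motors and the spindle followed. Of 11 mitotic kinesins other than those of the rule, 9 were called higher in RWPE-ERG-mAKT and 10 in RWPE1, with medians of 1.90 and 2.35. KIF2C, which depolymerizes microtubules, had 92.3 CPM in mitotic and 9.56 CPM in low cells of RWPE-ERG-mAKT, and 103 CPM in mitotic and 8.10 CPM in low cells of RWPE1. Spindle and centrosome genes were called in 14 of 19 counted in RWPE-ERG-mAKT and 15 of 20 in RWPE1. Among them TPX2, which activates Aurora A, had 499 CPM in mitotic and 77.6 CPM in low cells of RWPE-ERG-mAKT, and 591 CPM in mitotic and 52.3 CPM in low cells of RWPE1. Of 11 genes of cytokinesis, 9 were called in each library, with medians of 1.96 in RWPE-ERG-mAKT and 2.29 in RWPE1.

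Other groups were split within themselves. Of 30 kinetochore and centromere genes, 13 were called higher in each library. The outer kinetochore protein NUF2 had log2 ratios of 2.81 in RWPE-ERG-mAKT and 2.74 in RWPE1, against 0.43 and 0.50 for CENPC, a constitutive protein of the centromere. Of 12 spindle checkpoint genes, 5 were called in RWPE-ERG-mAKT and 6 in RWPE1, with BUB1 at 2.999 and 3.31, MAD2L1 at 1.30 and 1.35, and MAD1L1 at 0.04 and -0.05. Of the anaphase-promoting complex and its regulators, 3 of 17 counted genes were called in RWPE-ERG-mAKT and 3 of 16 in RWPE1. These were UBE2S, a chain-extending enzyme (2.57 and 2.25), the securin PTTG1 (1.69 and 1.31) and the inhibitor FBXO5 (1.20 and 1.58). None of the counted subunits of the complex itself passed 2-fold, with ANAPC1 at 0.05 and 0.11, ANAPC5 at -0.15 and -0.05, and CDC27, the highest of them, at 0.78 and 0.86 in RWPE-ERG-mAKT and RWPE1. With 1.74% and 1.89% of all counted genes called higher in these libraries, that none of the subunits was called does not stand out.

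Chromosome structure and the transcription factors of the program differed in the same way. Of 21 counted genes of condensin, cohesin and chromosome structure 9 were called higher in RWPE-ERG-mAKT, and of 20 in RWPE1 10 were. SMC4 of condensin had ratios of 1.10 in RWPE-ERG-mAKT and 1.49 in RWPE1, while its partner SMC2 had 0.34 and 0.44. Of 15 counted transcription factors of the cell cycle, FOXM1 was the one called higher, with 65.4 CPM in mitotic and 17.6 CPM in low cells of RWPE-ERG-mAKT, and 47.9 CPM in mitotic and 11.9 CPM in low cells of RWPE1. E2F1, an activator of S phase genes, was the one called lower, with 10.1 CPM in mitotic and 27.8 CPM in low cells of RWPE-ERG-mAKT, and 17.5 CPM in mitotic and 42.3 CPM in low cells of RWPE1. MYBL2, which encodes B-MYB, had ratios of 0.36 and 0.73, and LIN54, the DNA-binding part of MuvB, had -0.03 and 0.23.

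**Figure D3:**
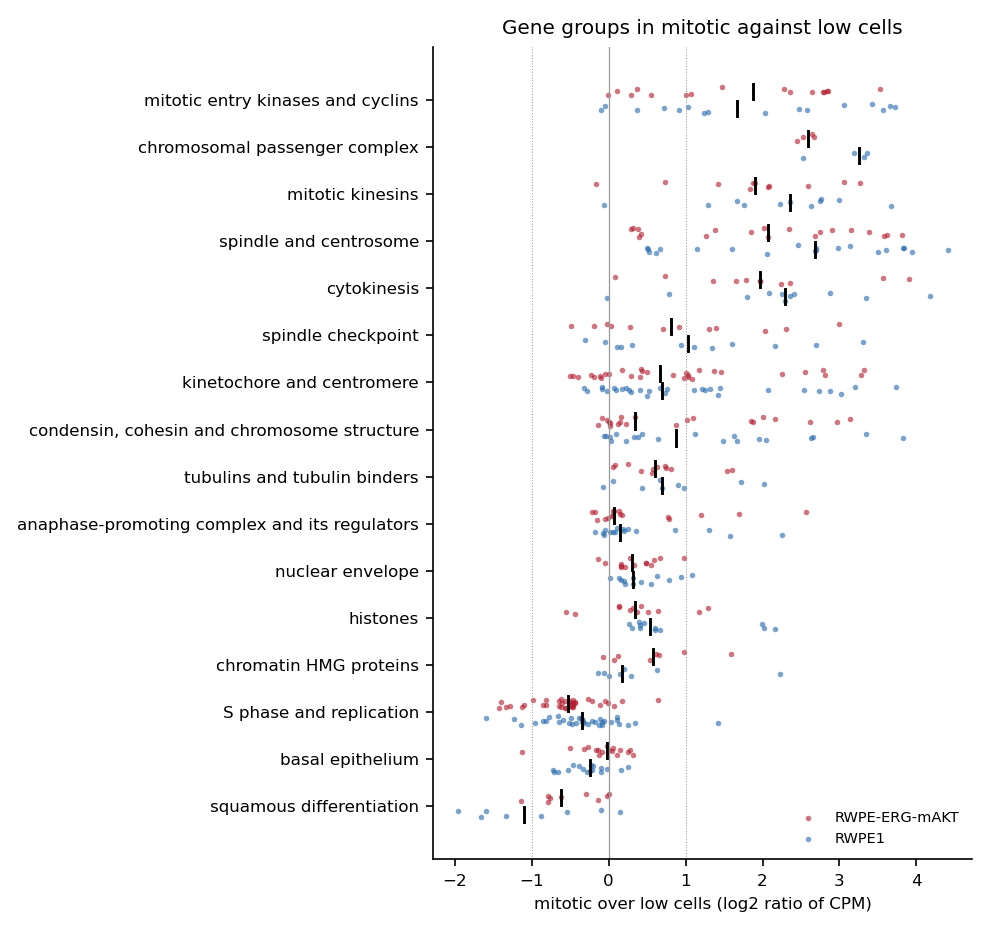
Log2 ratio of the level (CPM) in mitotic over low cells for each counted member of 16 gene groups without the rule genes, RWPE-ERG-mAKT above RWPE1 in each row, black ticks marking medians and dotted lines 2-fold. The chromosomal passenger complex has medians of 2.58 and 3.25, the anaphase-promoting complex of 0.07 and 0.15, and the S phase list of -0.53 and -0.34.

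Replication genes ran the other way. Of 36 counted S phase genes in RWPE-ERG-mAKT, 6 were over 2-fold lower in mitotic cells (MCM3, MCM5, MCM6, GINS2, CCNE2 and UNG) and 0 were higher, against 0.349% lower and 1.74% higher of all counted genes. Of 35 in RWPE1, 3 were lower (MCM5, MCM6 and UNG) and 1, RRM2, was higher, against 0.519% lower and 1.89% higher of all counted genes. MCM6 had 38.2 CPM in mitotic and 96.7 CPM in low cells of RWPE-ERG-mAKT, and 30.8 CPM in mitotic and 93.3 CPM in low cells of RWPE1. RRM2, a subunit of ribonucleotide reductase, had 156 CPM in mitotic and 99.9 CPM in low cells of RWPE-ERG-mAKT, and 146 CPM in mitotic and 54.6 CPM in low cells of RWPE1. Its log2 ratio in RWPE1 was 1.42, and 0.93 when the cells were chosen after thinning to 10000 UMIs.

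Transcripts were highest at different numbers of rule genes. Depth rose with this number, from a median of 9579.5 UMIs at 0 genes to 20588 at 8 in RWPE-ERG-mAKT. In RWPE1 it rose from 12319.5 to 23865.5 UMIs, so equal numbers are not equal depths in the libraries. In RWPE-ERG-mAKT cells PCNA, the replication clamp, had 207 CPM at 0 genes, its highest level of 241 CPM at 3 genes and 98.0 CPM at 8 genes. In RWPE1 cells it had 115 CPM at 0 genes, 117 CPM at 4 and 69.9 CPM at 8. HIST1H4C, a histone H4 gene expressed with DNA replication, was highest at 5 genes in RWPE-ERG-mAKT (1255 CPM, against 218 CPM at 0 and 767 CPM at 8) and at 7 genes in RWPE1 (1575 CPM, against 205 CPM at 0 and 1299 CPM at 8). TOP2A, in contrast, was highest at 8 genes in both, at 666 CPM in RWPE-ERG-mAKT and 755 CPM in RWPE1, against 36.8 CPM and 22.3 CPM at 0. In both libraries HIST1H4C was thus past its peak at 8 genes and still above its level at 0.

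As a class, mitotic cells had more HIST1H4C, with 954 CPM in mitotic and 389 CPM in low cells of RWPE-ERG-mAKT, and 1403 CPM in mitotic and 314 CPM in low cells of RWPE1. In RWPE-ERG-mAKT its log2 ratio was 1.29, but 0.39 when the cells were chosen after thinning. The per-cell median of HIST1H4C in mitotic cells was 4.66 UMIs per 10000 in RWPE-ERG-mAKT and 13.6 in RWPE1, against 1.65 and 1.92 in low cells. The histone variant H2AFX, which marks DNA breaks when phosphorylated, had 42.8 CPM in mitotic and 19.0 CPM in low cells of RWPE-ERG-mAKT, and 115 CPM in mitotic and 28.5 CPM in low cells of RWPE1. HMGB2, an abundant chromatin protein, had 472 CPM in mitotic and 156 CPM in low cells of RWPE-ERG-mAKT, and 555 CPM in mitotic and 118 CPM in low cells of RWPE1.

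**Figure D4:**
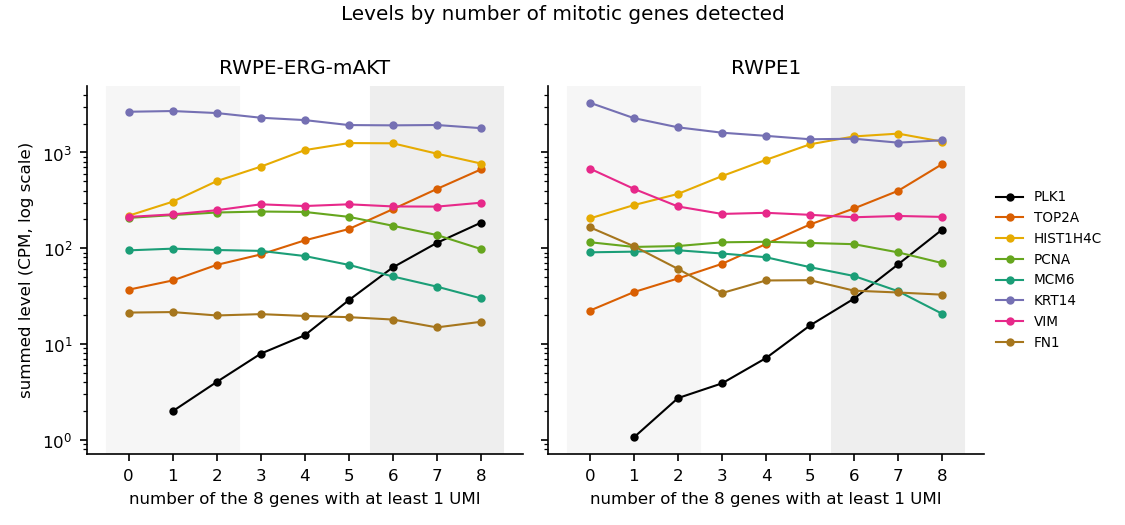
Summed level (CPM, log scale) of 8 genes over the cells with 0 to 8 of the rule genes, RWPE-ERG-mAKT on the left and RWPE1 on the right, low cells shaded lightly and mitotic cells darker. HIST1H4C peaks at 5 genes in RWPE-ERG-mAKT and at 7 in RWPE1, MCM6 declines in both, and VIM and FN1 are highest at 0 genes in RWPE1.

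Epithelial keratins were abundant in the mitotic cells. KRT5, a basal keratin, had 1954 CPM in mitotic and 2070.4 CPM in low cells of RWPE-ERG-mAKT, and 1983.5 CPM in mitotic and 2290.4 CPM in low cells of RWPE1. TP63, the basal transcription factor, had 61.6 CPM in mitotic and 61.4 CPM in low cells of RWPE-ERG-mAKT, and 136 CPM in mitotic and 160 CPM in low cells of RWPE1. KRT18, a keratin of luminal cells, had 564 CPM in mitotic and 512 CPM in low cells of RWPE-ERG-mAKT, and 1283 CPM in mitotic and 1014 CPM in low cells of RWPE1. None of these 3 genes passed 2-fold within a library.

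Of 17 counted basal genes 1 was lower in mitotic cells of RWPE-ERG-mAKT, KRT15 (39.3 CPM against 86.1 CPM in low cells), and 0 were called in RWPE1. KRT16, a keratin of activated and squamous epithelium, was lower in both, with 61.3 CPM in mitotic and 135 CPM in low cells of RWPE-ERG-mAKT, and 51.3 CPM in mitotic and 129 CPM in low cells of RWPE1. After thinning to 10000 UMIs the ratio of KRT15 in RWPE-ERG-mAKT was -0.84 and that of KRT16 in RWPE1 was -0.95, so neither passed 2-fold there. Squamous genes had a median log2 ratio of -0.62 in RWPE-ERG-mAKT (1 of 9 lower, against 0.349% of all counted genes) and -1.11 in RWPE1 (4 of 8 lower, against 0.519%).

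Markers of other cell types were low in the mitotic cells. Summed over each list, endothelial markers came to 1.09 CPM in RWPE-ERG-mAKT and 1.29 CPM in RWPE1 mitotic cells, microglia markers to 0.476 CPM and 2.70 CPM, choroid plexus markers to 0.146 CPM and 1.34 CPM, immune markers to 13.5 CPM and 9.47 CPM, fibroblast markers to 22.3 CPM and 2.22 CPM, and neuroendocrine markers to 18.4 CPM and 12.2 CPM. Most of the fibroblast sum of RWPE-ERG-mAKT was DCN, a matrix proteoglycan, at 18.8 CPM in mitotic and 32.02 CPM in low cells, while COL3A1 had 0 UMIs in its mitotic cells. The endothelial gene PECAM1 had 0.159 CPM in RWPE-ERG-mAKT and 0.219 CPM in RWPE1.

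The mesenchymal genes VIM and FN1 are given by their values, and their difference between the libraries was not tested. VIM, the intermediate filament of mesenchymal cells, had 284 CPM in mitotic and 235 CPM in low cells of RWPE-ERG-mAKT (log2 ratio 0.27, 95% interval 0.24 to 0.30), and 213 CPM in mitotic and 384 CPM in low cells of RWPE1 (-0.85, -0.88 to -0.82). FN1, fibronectin, had 16.6 CPM in mitotic and 20.6 CPM in low cells of RWPE-ERG-mAKT, and 33.8 CPM in mitotic and 91.8 CPM in low cells of RWPE1. In RWPE1 the difference lay among the cells with 0 to 2 rule genes, in which VIM had 679 CPM at 0, 417 CPM at 1 and 273 CPM at 2, against 210 to 234 CPM at 3 to 8. These were also the shallowest RWPE1 cells, with a median of 12320 UMIs at 0 genes. Against low cells within the 10th to 90th percentile of the members' UMIs, VIM in RWPE1 had a log2 ratio of -0.20 and FN1 of -0.89, which no longer passed 2-fold.

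ERG, the introduced factor, was found in mitotic and low cells alike. It had 21.98 CPM in mitotic and 19.0 CPM in low cells of RWPE-ERG-mAKT (log2 ratio 0.21, 95% interval 0.11 to 0.32), and 0.818 CPM in mitotic and 2.18 CPM in low cells of RWPE1, where the sums rest on 71 and 103 UMIs. With 10000 UMIs per cell ERG was found in 18.3% (17.0 to 19.6) of mitotic and 16.9% (15.5 to 18.3) of low cells of RWPE-ERG-mAKT, and in 0.573% and 2.07% of the RWPE1 cells, and without thinning in 30.2% and 17.97% of the RWPE-ERG-mAKT and in 1.82% and 2.52% of the RWPE1 mitotic and low cells. AKT1 had 17.9 CPM in mitotic and 18.003 CPM in low cells of RWPE-ERG-mAKT, and 22.5 CPM in mitotic and 21.96 CPM in low cells of RWPE1. These counts do not separate the endogenous from the introduced AKT1, and the sums give no check of that label.

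Between the libraries, the mitotic cells of RWPE-ERG-mAKT had 639 of 8867 counted genes over 2-fold higher than those of RWPE1 (7.21%) and 1034 lower (11.7%). In the low cells the counts were 707 of 9021 higher (7.84%) and 1082 lower (12%), so the libraries differed about as widely outside the class. With median-of-ratios scaling, which moved the median of all genes by 0.08 in log2, 769 were higher and 868 lower in mitotic cells. The genotype, the library and the growth of the cells cannot be told apart in this comparison.

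Most genes of the mitotic lists stood within 2-fold, as did most counted genes. Of all counted genes 7.21% were over 2-fold higher and 11.7% lower in the mitotic cells of RWPE-ERG-mAKT than of RWPE1. In both libraries the mitotic cells were chosen by genes of the late program. How far this choice itself makes the levels of the mitotic lists alike was not tested. Over the kinases and cyclins of entry the mitotic cells of RWPE-ERG-mAKT stood to those of RWPE1 at a median log2 ratio of 0.01 and 0 of 16 genes passed 2-fold, over the kinesins it was -0.04 and 0 of 11 did, and over cytokinesis genes it was -0.06 and 0 of 11 did. Likewise 0 of 4 genes of the chromosomal passenger complex, 0 of 12 of the spindle checkpoint and 0 of 18 of the anaphase-promoting complex and its regulators passed 2-fold. Of 12 tubulins and tubulin binders 3 were higher (TUBB3, TUBB2A and TUBA1A), of 20 spindle and centrosome genes 2 were higher (GTSE1 and HMMR) and 1 lower (CEP192), of 21 genes of condensin, cohesin and chromosome structure 2 were higher (SGO1 and NCAPH2), and of 31 kinetochore and centromere genes 1 was higher (CENPW) and 1 lower (SPC24). TUBB3, a tubulin best known from neurons, had 98.1 CPM in RWPE-ERG-mAKT and 10.7 CPM in RWPE1 mitotic cells. GTSE1, a microtubule-binding regulator of p53, had 141 CPM in RWPE-ERG-mAKT and 46.7 CPM in RWPE1 mitotic cells (log2 ratio 1.599, 95% interval 1.55 to 1.65), and HMMR, a hyaluronan-binding spindle protein, had 382 CPM and 168 CPM (1.19, 1.16 to 1.22). In the low cells the log2 ratio was 2.43 for GTSE1, whose level there was too low to be counted, and 1.39 for HMMR. LMNB1, lamin B1 of the nuclear envelope, had 47.6 CPM in RWPE-ERG-mAKT and 127 CPM in RWPE1 mitotic cells (-1.41, -1.47 to -1.36), and H2AFX had 42.8 CPM and 115 CPM (-1.43).

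**Figure D5:**
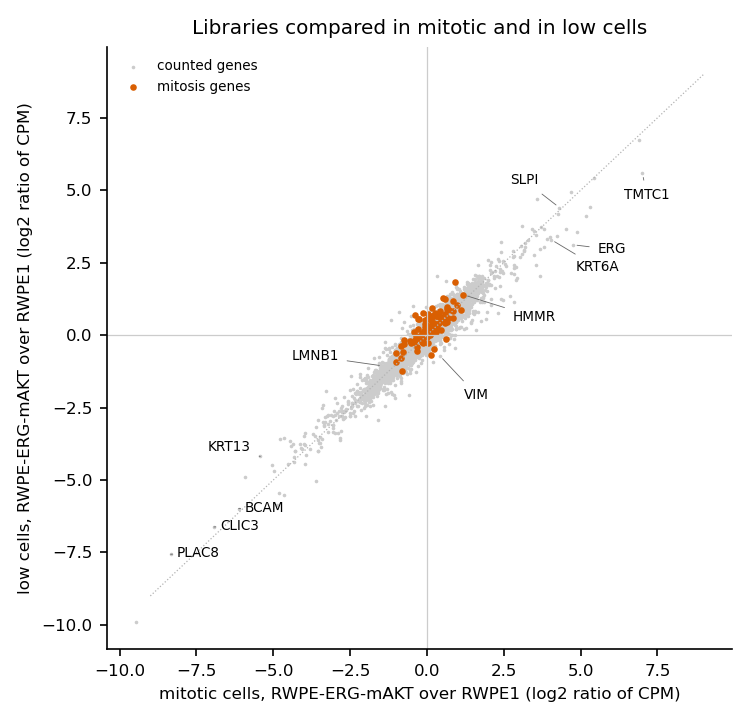
Each point is a counted gene, with the log2 ratio of its level (CPM) in RWPE-ERG-mAKT over RWPE1 in mitotic cells on the horizontal axis and in low cells on the vertical axis, genes of the mitosis lists in orange and the dotted line marking equal ratios. TMTC1 lies at 7.01 and 5.58, PLAC8 at -8.34 and -7.56, and most mitosis genes, like most counted genes, lie within 2-fold.

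The widest gaps between the mitotic cells of the libraries were mostly in genes outside the mitotic lists. TMTC1, a mannosyltransferase of the endoplasmic reticulum, had 105 CPM in RWPE-ERG-mAKT and 0.818 CPM in RWPE1 mitotic cells, KRT6A, a keratin of activated epithelium, had 2222 CPM and 135.5 CPM, and the secreted protease inhibitor SLPI had 992 CPM and 50.1 CPM. CDKN1C, which encodes the cell cycle inhibitor p57, had 81.9 CPM in RWPE-ERG-mAKT and 7.36 CPM in RWPE1 mitotic cells. In the other direction PLAC8 had 1.34 CPM in RWPE-ERG-mAKT and 435 CPM in RWPE1 mitotic cells, the chloride channel protein CLIC3 had 0.671 CPM and 82.0 CPM, the laminin receptor BCAM had 1.18 CPM and 82.7 CPM, and KRT13, a keratin of stratified epithelium, had 4.83 CPM and 207 CPM. Each of these genes also passed 2-fold the same way in the low cells.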

How the data were processed

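Single-cell 3′ RNA libraries of RWPE-ERG-mAKT and RWPE1 (1 each) were analysed. Each deposited matrix lists UMI counts, not normalized, of 36601 genes, made by the authors with Cell Ranger 7.1.0 on hg38, per the submitters' processing notes. Counts were summed over the cells of a class and given as CPM. Mitotic cells held 82010875 UMIs in RWPE-ERG-mAKT and 86787672 in RWPE1, low cells 62767529 and 47168564. Sums carry exact Poisson intervals, shares exact (Clopper-Pearson) intervals and ratios the exact interval of a pair of Poisson counts, all at 95% and for counting error only. Cells of 1 library are not replicates, so no test was made and no p-value is given. Genes at a mean of 10 CPM or more were counted, and 2-fold was the call. Thinning drew UMIs without replacement (seed 1). No doublet caller was run, and leaving out the deepest 5% of cells was an alternative. The ratio script was checked on simulated counts.

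The members, the gene lists and the rules were chosen with earlier results of these data known. Named genes were the 8 of the rule, the 15 steepest higher and 10 steepest lower genes of mitotic over low cells (2 qualified as lower) at 50 CPM or more in both libraries, the 12 largest ratios each way between the libraries in mitotic cells, the 6 largest differences each way of the mitotic-over-low ratio, up to 4 members of each of 39 lists at 20 CPM or more, the cell type markers, and genes the study names. Further members of the lists, namely ANAPC1, ANAPC5, ASPM, CCNB2, CCNE2, CDK1, CENPC, CENPW, CEP192, GINS2, INCENP, LIN54, MAD1L1, MAD2L1, MCM3, NCAPH2, PCNA, SGO1, SMC2, SMC4, SPC24, TPX2, TUBA1A, TUBB2A, TUBB3 and WEE1, were chosen after their values were seen. Steepness was ranked by the smaller of the absolute log2 ratios in the libraries. 1 sex-linked gene picked by the rule is not described. Coordinates are from GENCODE 29 (GRCh38), which held 34616 of 36601 gene identifiers (94.6%), and promoters from RefSeq. Without strand information in the text of the methods, antisense overlap was not assessed. The scripts ran in Python 3.11.15 with scipy 1.17.1, matplotlib 3.10.9, pandas 2.3.3 and numpy 2.4.6. Alternatives were the scaling, the gene and mitochondrial limits, the number of rule genes, the low cells used, depth, and, added after the data were seen, barcodes with brain-type genes, shared barcodes and KIF14.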

Additional observations from a re-analysis of the deposited data

Results flagged for a closer look

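For 8 of the named genes the ratio of mitotic over low cells lay on opposite sides of 0 in the libraries, with each counting interval excluding 0 and a gap of over 1 in log2. With 1 library per condition the difference was not tested, and the values are given as a description. VIM had a gap of 1.12 (0.27 in RWPE-ERG-mAKT and -0.85 in RWPE1), and LGALS1, the galectin, a gap of 1.04 (0.46 and -0.58), which narrowed in both when low cells of like depth were used, with RWPE1 ratios of -0.20 and -0.11. IFI27, an interferon-induced gene, had a gap of 1.71 (0.23 in RWPE-ERG-mAKT and -1.49 in RWPE1), and IFIT2, another of these, a gap of -1.68 (-1.32 and 0.36), both being on the list for the interferon response. With low cells of like depth the RWPE1 ratio of IFI27 was -0.63. After thinning to 10000 UMIs the smaller ratio of each was close to 0, at -0.0038 for IFI27 in RWPE-ERG-mAKT and -0.0017 for IFIT2 in RWPE1. HIST1H1C, a linker histone, had a gap of -1.17 (-0.56 in RWPE-ERG-mAKT and 0.61 in RWPE1). CREB5 had a gap of 1.32 (0.27 in RWPE-ERG-mAKT and -1.04 in RWPE1), where it was at 2.67 CPM in mitotic and 5.51 CPM in low cells of RWPE1, and its RWPE1 ratio was -0.51 with low cells of like depth. CDH4, R-cadherin, had a gap of -1.11 (-1.01 in RWPE-ERG-mAKT and 0.10 in RWPE1), and was at 2.35 CPM in mitotic and 4.75 CPM in low cells of RWPE-ERG-mAKT. For CDH4 the RWPE-ERG-mAKT ratio was -0.52 after thinning and -0.79 with low cells of like depth, and in both settings the RWPE1 ratio of CDH4, at -0.11, no longer lay on the other side of 0. ERG had a gap of 1.63 (0.21 in RWPE-ERG-mAKT and -1.42 in RWPE1). In RWPE1 it was at 0.818 CPM in mitotic and 2.18 CPM in low cells, sums of 71 and 103 UMIs.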

How the results depend on the processing

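No paired analysis was possible because each condition was 1 library. The share of mitotic cells moved with the rule and with depth. It was 28.9% in RWPE-ERG-mAKT and 35.8% in RWPE1 (ratio 0.805), against 37.6% and 44.9% (0.837) with 5 or more genes, 20.6% and 27.04% (0.760) with 7 or more, 24.7% and 34.8% (0.711) with over 200 detected genes, 34.5% and 39.4% (0.876) without KIF14 (added after the data were seen), 24.2% and 24.8% (0.975) at 10000 UMIs and 11.1% and 12.9% (0.861) at 5000. Without the deepest 5% it was 27.1% and 33.5%, and without a mitochondrial limit 34.2% in RWPE1 (ratio 0.841). The ratio stayed below 1 in each of these, with an interval of 0.928 to 1.02 at 10000 UMIs. Of the counts over 2-fold, those at 50 CPM or more were 72 higher and 8 lower in mitotic cells of RWPE-ERG-mAKT, 70 and 7 in RWPE1, and 284 and 278 between the libraries, since fewer genes were counted. Genes lower in mitotic cells numbered 62 in RWPE-ERG-mAKT and 211 in RWPE1 against cells with none of the 8 genes, 28 in RWPE1 against low cells of like depth, and 46 in RWPE-ERG-mAKT after thinning, and the cause was not tested. The other alternatives left these counts within 1.5 times. No named gene past 2-fold changed its direction, and 7 of 67 in RWPE-ERG-mAKT, 11 of 72 in RWPE1 and 7 of 69 between the libraries fell under 2-fold in at least 1 alternative. Leaving out barcodes shared by the libraries or barcodes with brain-type genes changed none of these shares or counts by over 1.5 times.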

Other observations

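Over all counted genes, 1.74% were higher and 0.349% lower in mitotic cells of RWPE-ERG-mAKT, and 1.89% higher and 0.519% lower in RWPE1. At such shares a short list with 0 called does not stand out. Cytosolic ribosomal protein genes had median log2 ratios of -0.02 in RWPE-ERG-mAKT and -0.01 in RWPE1, and the immediate early genes of 0.04 and -0.07, with 0 of 18 called in either library. Of 12 heat shock chaperones 0 were called in either library, with medians of 0.22 in RWPE-ERG-mAKT and 0.28 in RWPE1, and HSPA1A, the inducible HSP70, was at 70.1 CPM in mitotic and 47.3 CPM in low cells of RWPE-ERG-mAKT, and at 58.0 CPM in mitotic and 31.5 CPM in low cells of RWPE1. The nuclear RNA NEAT1, a scaffold of paraspeckles, had 675 CPM in mitotic and 1035 CPM in low cells of RWPE-ERG-mAKT, and 1455 CPM in mitotic and 1729 CPM in low cells of RWPE1.

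Of 15 counted interferon response genes 0 were higher and 1, IFIT2, was lower in mitotic cells of RWPE-ERG-mAKT, with a median of -0.17. Of 9 in RWPE1 0 were higher and 1, IFI27, was lower, with a median of 0.19. Of all counted genes 1.74% were higher and 0.349% lower in RWPE-ERG-mAKT, and 1.89% higher and 0.519% lower in RWPE1. SOD2, the mitochondrial superoxide dismutase, had 300 CPM in mitotic and 565 CPM in low cells of RWPE-ERG-mAKT (log2 ratio -0.91), and 56.2 CPM in mitotic and 61.4 CPM in low cells of RWPE1 (-0.13). ISG20, an interferon-induced exonuclease, had 22.9 CPM in mitotic and 45.3 CPM in low cells of RWPE-ERG-mAKT (-0.99), and 7.22 CPM in mitotic and 8.44 CPM in low cells of RWPE1 (-0.22). The differences between the libraries were not tested.

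Between the mitotic cells of the libraries, 9 of 18 immediate early genes were over 2-fold higher in RWPE-ERG-mAKT (IER2 at 608 CPM and JUN at 205 CPM, against 57.3 CPM and 25.3 CPM in RWPE1) and 1 was lower. Of 9 squamous genes 7 were higher and 0 lower, and of 15 interferon response genes 8 were higher and 2 lower, where 7.21% of all counted genes were higher and 11.7% lower. Of 15 targets of ATF4, the factor of the amino acid response, 6 were over 2-fold lower, among them the cystine transporter SLC7A11 at 12.8 CPM in RWPE-ERG-mAKT and 43.1 CPM in RWPE1. In the low cells 10 of 18 immediate early genes, 4 of 9 squamous and 10 of 15 interferon genes were higher and 5 of 15 ATF4 targets lower, where 7.84% of all counted genes were higher and 12% lower.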
